A study of Mus musculus with 9 samples.

Results

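The NRF2 pathway was examined through 10 genes in R848-stimulated plasmacytoid dendritic cells (pDCs), the dendritic cells known for making large amounts of type I IFN. The genes were chosen by name, with earlier results of these data known. They were *Nfe2l2*, which encodes NRF2, *Keap1*, and 8 classic NRF2 targets (*Hmox1*, *Nqo1*, *Srxn1*, *Gclc*, *Gclm*, *Txnrd1*, *Slc7a11* and *G6pdx*). Each matched a single row by symbol, so 10 of the 52550 genes in the file were members. Each of the 10 had reads, as did 33.6% of all genes in the file. Splenic pDCs had been sorted by FACS from C57BL/6 mice of 3 *Ncf1* genotypes, WT (G/G), heterozygous (G/A) and homozygous (A/A) for the knockin of p.R90H, and stimulated with R848, a TLR7/-8 ligand, at 10 μg/mL for 12 hours. The study's methods give female mice aged 10 to 12 weeks and a CRISPR knockin crossed to C57BL/6J. The number of founder lines is not given in the sources used here. There were 9 samples, 3 of each genotype. Only A/A replicate 1 was analysed, and the remaining 8 libraries were not used here. No genotype difference was therefore computed, every value below comes from that library, and none has a replicate error.

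NRF2 is a transcription factor that binds the antioxidant response element, a short DNA motif near many genes for redox enzymes, as a dimer with a small MAF protein. In resting cells KEAP1 holds NRF2 for ubiquitylation by a ligase built on CUL3, and oxidants or electrophiles that react with KEAP1 cysteines let NRF2 build up. Its targets supply glutathione, thioredoxin reductase activity and NADPH, and degrade heme and quinones. Because NRF2 is controlled mainly at the protein level, mRNA levels of *Nfe2l2* and *Keap1* are not a readout of NRF2 activity. *Ncf1* encodes a subunit of NOX2, the phagocyte NADPH oxidase, which makes superoxide.

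The library held 31408298 reads over 17664 genes with reads. *Ncf1* had 1079 CPM (reads scaled to a total of 1000000), and these values do not separate its alleles. All 10 pDC markers examined had reads, from 46.2 CPM for *Klk1* to 2289 CPM for *Spib*, and the 5 T and NK cell markers were listed at 0. Among other lists, 5 of 6 conventional DC markers, 4 of 8 neutrophil markers, 3 of 4 B cell markers and 2 of 5 erythroid markers had reads. Their summed levels were 185, 26.7, 6.69 and 3.63 CPM, against 7326 CPM for the pDC list. Of the conventional DC markers, *Zbtb46* (106 CPM) and *Clec9a* (73.9 CPM) were above *Klk1*, and the rest had at most 2.36 CPM. The macrophage list, described further below, had reads for 8 of 10 markers and summed to 238 CPM. The library went against the stated sex of the mice. Y-linked *Ddx3y*, *Eif2s3y*, *Kdm5d* and *Uty* had 19.0 to 102 CPM, and *Xist* was listed at 0, which allows up to 0.0955 CPM (3 reads). Since 1 library was analysed, no value could be given without it. In a bulk sample, fewer cells of a type and less RNA per cell cannot be told apart.

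Levels are given as CPM and, wherever genes are set against each other, as RPKM, CPM per kilobase of a gene's annotated exons merged over its transcripts. Percentiles rank a gene among all genes with reads. Intervals are Wilson 95% intervals and cover counting error only, with each read taken as independent. PCR copies of a molecule were not marked and could not be collapsed. Sequencing was paired-end, and whether a counted read is a mate or a pair of mates is not given in the sources used here. For both reasons these intervals and those of ratios may be too narrow. The 10 genes had a median of 90.4 CPM, beside 6.34 CPM over all genes with reads, and together held 0.109% of the reads. Their read counts ran from 294 for *Nqo1* to 6809 for *Keap1*. Each of the 10 had at least 100 reads, as did 9416 of the 12201 protein-coding genes with reads. Per length, the median was 25.2 RPKM, beside 1.90 RPKM over all genes with reads and 3.83 RPKM over the 12201 protein-coding genes with reads. Of the 10 genes, 9 stood above that protein-coding median, and *Slc7a11* stood just below it, with an upper limit of 3.80 RPKM. With the longest transcript as the length of every gene, *Slc7a11* moved to the other side of the median, at percentile 50.9 of protein-coding genes with reads against 48.7 with merged exons.

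**Figure D1:**
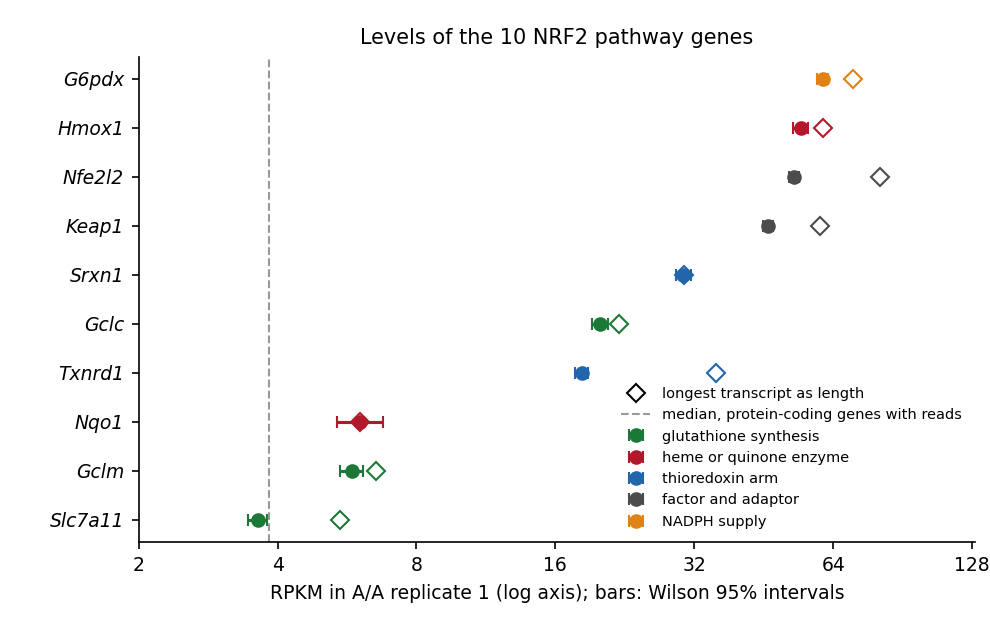
RPKM of the 10 genes in A/A replicate 1 on a log axis, with filled circles for merged exons, Wilson 95% bars for counting error, and open diamonds for the longest transcript as the length. *G6pdx* is at 60.7 RPKM and *Slc7a11* at 3.62 RPKM, and the diamond of *Txnrd1* lies farthest from its circle, at 35.7 against 18.2 RPKM.

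The order per length had 4 genes close together at the top. *G6pdx* had 60.7 RPKM, *Hmox1* 54.4, *Nfe2l2* 52.7 and *Keap1* 46.2. *Srxn1* followed at 30.3 RPKM, then *Gclc* at 20.0 and *Txnrd1* at 18.2. *Nqo1* (6.03 RPKM), *Gclm* (5.79) and *Slc7a11* (3.62) were the lowest, and the highest level was 16.8 times the lowest. Of the 9 pairs of neighbours in this order, 7 differed beyond counting error. The exceptions were *Hmox1* and *Nfe2l2*, with a ratio of 1.03 (exact 95% interval, 0.988 to 1.08), and *Nqo1* and *Gclm*, with 1.04 (0.912 to 1.18). The largest gap between neighbours was from *Txnrd1* to *Nqo1*, a ratio of 3.03 (2.69 to 3.42). Gene length set part of this order. With the longest transcript as the length, *Nfe2l2* came ahead of *G6pdx* (80.8 and 70.5 RPKM) and *Txnrd1* ahead of *Srxn1* (35.7 and 30.4 RPKM). Of the 45 pairs among the genes, 38 kept their direction beyond counting error and 4 turned beyond it.

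Sequence near the start sites was examined for the core of the antioxidant response element, TGACNNNGC, on both strands, because it is the motif that defines the pathway. RefSeq promoter windows (GRCm38.p6) of 300 bases, 250 before the start and 50 from the start on, were matched for 8 of the 10 genes, in 10 windows. *Hmox1* and *Gclc* had no window in the table used. A match was found in 5 of the 8 genes, 62.5%, beside 15.0% of the 16274 protein-coding genes with a window. By window, the shares were 50% of 10 and 13.1% of 19866. Most of the genes were chosen as classic NRF2 targets, so a higher share is not an independent result. Each of the 5 sequences below is shown 5′ to 3′ in the direction of the motif, with the match in capitals and 10 flanking bases on each side, to show how the members differ in the 3 free positions and the flanks.
*G6pdx*, chrX:74428919-74428947, plus strand: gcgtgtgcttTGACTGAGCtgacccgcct
*Gclm*, chr3:122245413-122245441, minus strand: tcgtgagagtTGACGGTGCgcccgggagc
*Nfe2l2*, chr2:75704885-75704913, minus strand: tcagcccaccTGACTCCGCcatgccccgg
*Srxn1*, chr2:152105542-152105570, minus strand: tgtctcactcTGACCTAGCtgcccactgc
*Txnrd1*, chr10:82859104-82859132, minus strand: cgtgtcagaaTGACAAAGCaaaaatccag

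Read in the direction of the gene, the match began 57 bases before the start site of its window in *G6pdx*, 134 in *Gclm*, 240 in *Nfe2l2* and 92 in *Txnrd1*. In *Srxn1*, read likewise, it began 28 bases past the start site. The motif runs in the direction of the gene in *Nfe2l2* and against it in the other genes with a match, which are therefore printed above in the opposite direction. *Txnrd1* had 3 windows, and the match lay in the window of 1 of them. Only *Txnrd1* among the 8 genes also held the longer form of the core with an A after it, which was in 3.18% of protein-coding genes with a window. Windows of *Keap1*, *Nqo1* and *Slc7a11* held no match to the core, which says only that these letters are not in those windows. Levels of genes with and without a match overlapped. Genes with a match ranged from 5.79 RPKM (*Gclm*) to 60.7 RPKM (*G6pdx*), and those without from 3.62 RPKM (*Slc7a11*) to 46.2 RPKM (*Keap1*). A match is a description of letters, and no binding was measured here.

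*Nfe2l2* (ENSMUSG00000015839.6, chr2:75675513-75704641, minus strand of GRCm38) was covered by 6283 reads, a level of 200.0 CPM with an interval of 195 to 205, at percentile 95.04 of reads. *Keap1* (ENSMUSG00000003308.15, chr9:21229730-21239361, minus strand), the adaptor that holds NRF2 for ubiquitylation, was covered by 6809 reads, a level of 217 CPM with an interval of 212 to 222, at percentile 95.5. Both the factor and its adaptor stood in the upper tail of reads per gene. Per length, *Nfe2l2* was 1.14 times *Keap1* (exact 95% interval, 1.10 to 1.18). Without length the ratio turned to 0.923 (0.892 to 0.955), so the order of the pair depends on the length used. The antisense gene *Gm16754* covered 10.9% of *Keap1* exon bases, and the strand setting of the counting is not given in the sources used here.

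The 13 regulators of NRF2 on the list all had reads, beside 55.9% of all protein-coding genes. Their median was 62.3 CPM and 11.1 RPKM. *Sqstm1*, which encodes the autophagy receptor p62 that binds KEAP1, was the highest at 779 RPKM, 16.9 times *Keap1* (exact 95% interval, 16.5 to 17.3). Of its exon bases, 17.3% lay within exons on the other strand. *Nfe2l2* and *Keap1* themselves came next on the list. Of the ligase that acts with KEAP1, the RING subunit *Rbx1* had 36.4 RPKM and the scaffold *Cul3* had 2.77 RPKM, so *Keap1* was 16.7 times *Cul3* (15.1 to 18.4).

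Among the partners and competitors of NRF2 on DNA, the small MAF genes differed widely. *Mafk* had 36.6 RPKM, *Mafg* 11.1 and *Maff* 0.319, and *Mafk* was 3.30 times *Mafg* (3.13 to 3.48). *Bach1*, which encodes a heme-sensitive repressor of the same element, had 1218 reads, or 6.28 RPKM. Its level was 0.119 times that of *Nfe2l2* (0.112 to 0.127), or 0.194 times without length. *Bach2*, the repressor best known from lymphocytes, had 13 reads. *Nfe2l1*, an NRF2 relative known for driving proteasome genes, had 23.6 RPKM, and *Nfe2l2* was 2.23 times as high (2.15 to 2.32).

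**Figure D2:**
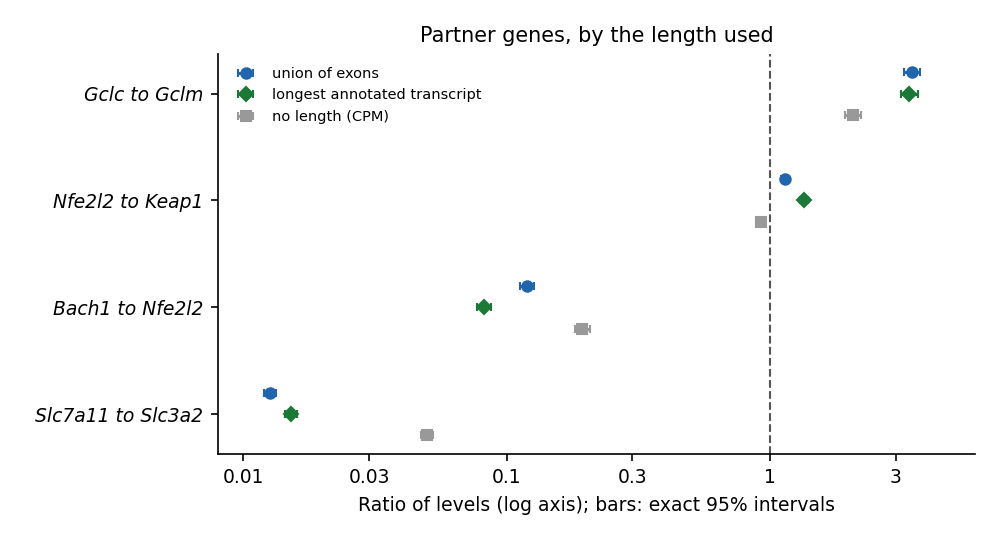
Ratios of partner genes on a log axis with exact 95% bars for counting error, computed with 3 choices of gene length. *Gclc* to *Gclm* lies above 1 and *Bach1* to *Nfe2l2* and *Slc7a11* to *Slc3a2* lie below 1 with each choice, while *Nfe2l2* to *Keap1* crosses 1 without length (0.923).

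Glutathione is made from cysteine, glutamate and glycine. Cystine enters through the transporter of SLC7A11 and SLC3A2, glutamate-cysteine ligase (catalytic subunit GCLC, modifier GCLM) performs the rate-limiting step, and glutathione synthetase (GSS) adds glycine. *Slc7a11* (ENSMUSG00000027737.10, chr3:49892526-50443614, minus strand) was covered by 1583 reads, a level of 50.4 CPM with an interval of 48.0 to 52.9. It stood at percentile 81.2 by reads but 61.0 by RPKM, as its merged exons span 13.9 kb. *Slc3a2*, whose protein also pairs with other amino acid transporters, had 287 RPKM, and *Slc7a11* was 0.0126 times as high (exact 95% interval, 0.0120 to 0.0133), or 0.0498 times without length.

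*Gclc* (ENSMUSG00000032350.9, chr9:77754535-77794485, plus strand) was covered by 2368 reads, a level of 75.4 CPM with an interval of 72.4 to 78.5. *Gclm* (ENSMUSG00000028124.15, chr3:122245557-122270732, plus strand) was covered by 1145 reads, a level of 36.5 CPM with an interval of 34.4 to 38.6. The catalytic subunit was 3.45 times the modifier per length (3.22 to 3.71) and 2.07 times (1.93 to 2.22) without length. For *Gclm*, exons of *Gm17494* on the opposite strand covered 4.71% of its exon bases and those of *Gm6061* on its own strand covered 3.88%, and 3.92% of its 50-base windows occurred in transcripts of other genes. Its count is therefore less certain than that of *Gclc*, which had 0% by each of these measures.

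The gene of the next step was lower than both. *Gss* had 150 reads, or 0.807 RPKM, and *Gclc* was 24.8 times as high (21.0 to 29.4) and *Gclm* 7.18 times (6.05 to 8.57). With the longest transcript these ratios were 15.03 and 4.45, and 15.4% of *Gss* exon bases lay within exons on the other strand. *Gsr*, which encodes the reductase that regenerates glutathione with NADPH, had 68.9 RPKM, 3.44 times *Gclc* (3.28 to 3.61). Among the listed genes of glutathione turnover and cysteine supply, *Chac1* had 32.8 RPKM and *Chac2* 7.60, while *Ggct* had 0.312, *Oplah* 0.600 and *Cth* 0.194. *Ggt1* and *Cbs* were listed at 0. Of the 13 genes of glutathione synthesis and turnover, 11 had reads, a share of 84.6% beside 55.9% of all protein-coding genes. The median of those 11 was 36.5 CPM.

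*G6pdx* (ENSMUSG00000031400.10, chrX:74409483-74429194, minus strand), which encodes the entry enzyme of the pentose phosphate pathway, was covered by 5873 reads, a level of 187 CPM with an interval of 182 to 192. It stood at percentile 94.7 by reads and 95.1 by RPKM. Exons of *Ikbkg* on the opposite strand overlapped 13.6% of its exon bases. Of its 50-base windows, 6.46% also occurred in *G6pd2*, a related gene that had 2 reads. *Pgd*, the next NADPH-making enzyme of the pathway, had 27.7 RPKM, and *G6pdx* was 2.19 times as high per length (2.12 to 2.28) but 1.05 times (1.01 to 1.09) without length. *Taldo1*, of the non-oxidative branch, was the highest of the 10 NADPH supply genes at 243 RPKM, 4.0 times *G6pdx* (3.88 to 4.12). *Tkt* had 32.8 RPKM. By contrast *Me1*, which makes NADPH from malate, had 52 reads, or 0.430 RPKM. All 10 genes on this list had reads, beside 55.9% of all protein-coding genes, with a median of 78.0 CPM. However, the 2 reads of *G6pd2* are below the 3 reads that a count of 0 allows.

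*Txnrd1* (ENSMUSG00000020250.10, chr10:82833951-82897712, plus strand), the cytosolic thioredoxin reductase, was covered by 4061 reads, a level of 129 CPM with an interval of 125 to 133. It was 11.6 times its mitochondrial counterpart *Txnrd2* (exact 95% interval, 10.1 to 13.4), or 18.7 times without length, while *Txnrd3* had 0.326 RPKM. *Gsr* was 3.77 times *Txnrd1* with merged exons (3.63 to 3.93) and 1.99 times (1.91 to 2.07) with the longest transcript, since the 8 annotated *Txnrd1* transcripts together span 7.09 kb and the longest 3.62 kb. *Srxn1* (ENSMUSG00000032802.8, chr2:152105516-152111376, plus strand) encodes sulfiredoxin, which repairs over-oxidized peroxiredoxins. It was covered by 2685 reads, a level of 85.5 CPM with an interval of 82.3 to 88.8.

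Transcripts of *Prdx1* and *Txn1*, which encode substrates of these enzymes, had more reads per length than those of the enzymes. *Prdx1*, the only peroxiredoxin on the list, had 476 RPKM, 15.7 times *Srxn1* (15.1 to 16.3), or 20.8 times with the longest transcript. *Txn1*, cytosolic thioredoxin, had 253 RPKM, 13.9 times *Txnrd1* (13.4 to 14.4). The ratio of *Txn1* to *Txnrd1* was 7.10 with the longest transcript and 2.06 without length. *Txnip*, which encodes an inhibitor of thioredoxin, had 58.1 RPKM. All 8 genes of the thioredoxin list had reads, beside 55.9% of all protein-coding genes, and their median was 107 CPM.

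*Hmox1* (ENSMUSG00000005413.8, chr8:75093621-75100589, plus strand), the inducible heme oxygenase, was covered by 2993 reads, a level of 95.3 CPM with an interval of 91.9 to 98.8. It moved from percentile 89.3 by reads to 94.5 by RPKM, having exons of 1.75 kb. The constitutive *Hmox2* had 46.1 RPKM, and *Hmox1* was 1.18 times as high with merged exons (1.12 to 1.24). With the longest transcript the ratio was 1.03 (0.978 to 1.08), within counting error of no difference. Without length the ratio was 0.932 (0.887 to 0.980), and 40.2% of *Hmox2* exon bases lay within exons on the other strand. Downstream of heme oxygenase, the biliverdin reductases *Blvrb* and *Blvra* had 20.8 and 9.65 RPKM. The ferritin genes, which store the iron that heme breakdown releases, were the highest of the list, with *Ftl1* at 8685 RPKM and *Fth1* at 927 RPKM. For *Ftl1*, 26.5% of exon bases lay within exons on the other strand. The iron exporter *Slc40a1* had 0.591 RPKM. Each of the 8 heme and iron genes had reads, beside 55.9% of all protein-coding genes, and their median was 76.6 CPM.

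*Hmox1* is also a gene of splenic red pulp macrophages, so macrophage markers were read beside it, although the sort kept CD11c-intermediate cells positive for SiglecH and PDCA1, a gate meant for pDCs. The pDC marker list holds *Siglech* and *Bst2*, which encode SiglecH and PDCA1. Of 10 macrophage markers, 8 had reads and *Cd163* and *Marco* were listed at 0. *Spic*, a transcription factor of red pulp macrophages, had 103 CPM, and the others ran up to 49.0 CPM for *Csf1r*. Their summed level was 238 CPM. The part of these markers in the *Hmox1* level was not tested.

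*Nqo1* (ENSMUSG00000003849.8, chr8:107388225-107403206, minus strand), which encodes a quinone reductase often used as a reporter of NRF2 activity, was covered by 294 reads, a level of 9.36 CPM with an interval of 8.35 to 10.5, the fewest of the 10 genes. It stood at percentile 54.8 by reads and 69.7 by RPKM, because its exons span only 1.55 kb. *Hmox1* was 9.03 times *Nqo1* per length (8.01 to 10.2), and *Nqo1* was 3.88 times its paralog *Nqo2* (3.23 to 4.68), or 1.49 times without length. Of the 15 quinone, aldehyde and xenobiotic genes, *Nqo1* included, 12 had reads, a share of 80% beside 55.9% of all protein-coding genes. The median of those 12 was 6.67 CPM, beside 17.8 CPM over protein-coding genes with reads and 6.34 CPM over all genes with reads. *Akr1a1*, an aldehyde reductase, stood out at 693 RPKM. *Nqo1* was second on this list, ahead of *Akr1b3* at 5.46 RPKM. *Abcc2*, *Abcc3* and *Cbr3* were listed at 0.

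**Figure D3:**
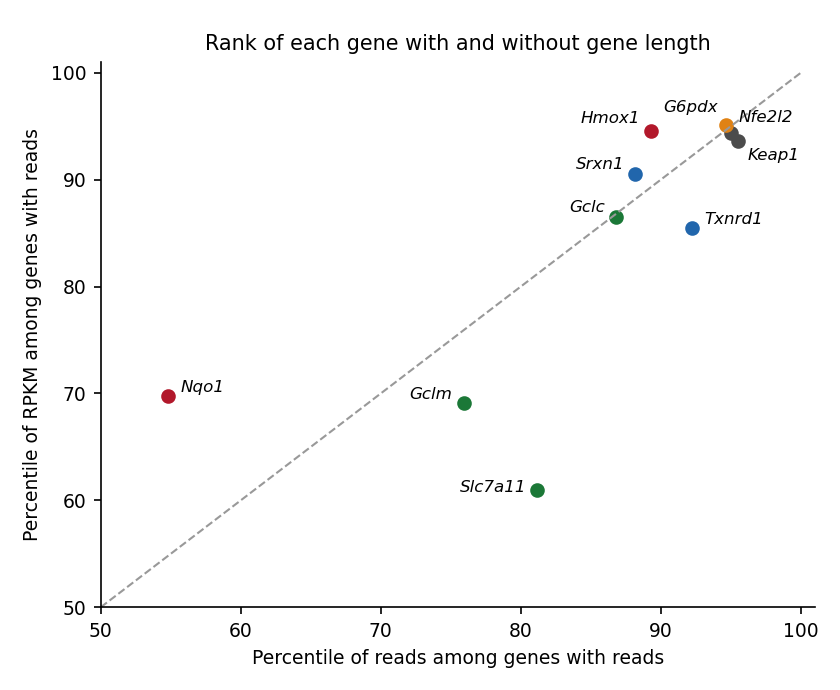
Percentile of each of the 10 genes by reads (x axis) and by RPKM (y axis) among genes with reads in A/A replicate 1, with a dashed line where the 2 are equal. *Nqo1* (54.8 and 69.7) lies farthest above the line and *Slc7a11* (81.2 and 61.0) farthest below it.

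Glutathione S-transferases, which conjugate glutathione to electrophiles and include further NRF2 targets, were the last list examined. Of the 19 genes, 10 had reads, a share of 52.6% beside 55.9% of all protein-coding genes. The median of those 10 was 6.10 CPM, beside 17.8 CPM over protein-coding genes with reads and 6.34 CPM over all genes with reads. The alpha class genes *Gsta1*, *Gsta2*, *Gsta3* and *Gsta4* were listed at 0, as were *Gstm2*, *Gstm3*, *Gstm5*, *Gstp2* and *Mgst1*. Each 0 allows up to 0.0955 CPM. *Gsto1* was the highest at 28.7 RPKM, 1.89 times *Gstp1* at 15.2 RPKM (1.74 to 2.07), followed by *Gstt1* at 9.46 RPKM. Many genes of these classes are close paralogs, so reads could have been split among them.

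**Figure D4:**
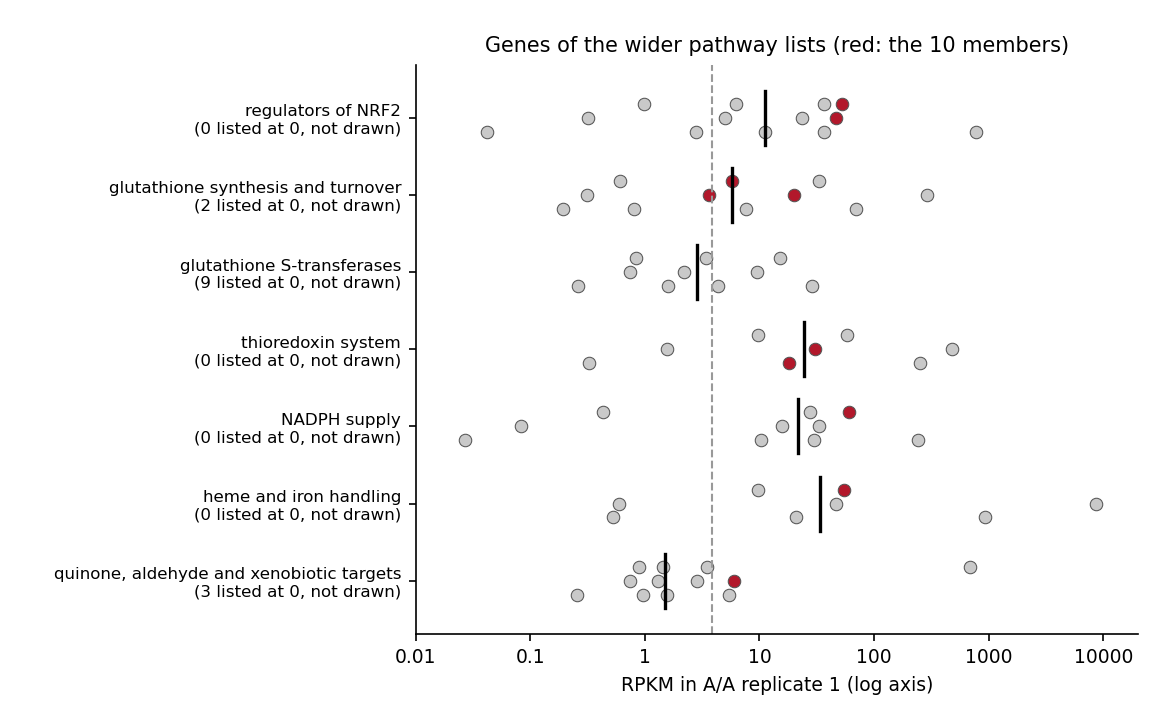
RPKM (log axis) of the genes with reads on 7 lists of the wider pathway in A/A replicate 1, with the 10 members in red, list medians as black bars, the median of protein-coding genes with reads (3.83 RPKM) as a dashed line, and genes listed at 0 counted beside each name. Medians of the glutathione S-transferases (2.82 RPKM) and of the quinone, aldehyde and xenobiotic targets fall below the dashed line, and those of the other lists lie above it.

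Over the 7 lists and the members together there were 86 different genes, of which 14 were listed at 0. These 14 were 9 glutathione S-transferases, 3 of the quinone, aldehyde and xenobiotic genes and 2 of the genes of glutathione synthesis and turnover. For comparison, 55.9% of all protein-coding genes had reads. Among the 7 lists, leaving aside the members (25.2 RPKM), the highest median per length was that of heme and iron handling (33.4 RPKM), then the thioredoxin system (24.3) and NADPH supply (21.6). Levels of 1 stimulated A/A library do not show which of these genes R848 or the knockin changed.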

How the data were processed

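Sorted splenic pDC mRNA was sequenced as 150 bp paired-end reads, and the authors compared genotypes with DESeq2. The submitters' processing notes name HISAT2, StringTie and the builds mm8 and mm10. The counting tool, annotation and strand setting are not given in the sources used here. The deposited value of each gene is a normalized signal without a stated unit. It was inferred to be reads divided by 1 library factor, because 100% of values above 0 were whole multiples of 1.19 (within 0.001 reads). Coordinates matched GENCODE M21 (GRCm38) exactly for 95.2% of matched genes.

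Reads were recovered by that step and scaled to CPM. RPKM used merged GENCODE M21 exons, since the deposited length is the genomic span. Ratios have exact conditional 95% intervals. Recovery, percentiles, ratios and motif search were tested on simulated data. Python 3.11.15, numpy 2.4.6, scipy 1.17.1, pandas 2.3.3 and matplotlib 3.10.9 were used.

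Members and lists were chosen with earlier results of these data known. By rule, the text names each member, the 3 highest genes of each list by RPKM, genes listed at 0 and genes of 4 partner ratios. Other genes and ratios were chosen after their values were seen. Alternatives changed the length, the total, the filter and the motif. Protein sequences were not used here.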

Additional observations from a re-analysis of the deposited data

How the results depend on the processing

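No paired analysis was possible because just 1 library entered the report, which also means that no replicate was left out. The limits are those of 1 library, counting error and gene length, and *Nqo1*, with 294 reads, had the widest relative interval of the 10 genes.

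The median level of the 10 genes was 90.4 CPM, and 100.1 CPM when the 10 highest genes were left out of the total, a rise that follows from the smaller total. Their median percentile of 88.7 was 96.2 over all genes in the file and 86.2 over genes with at least 10 reads, both by construction, and 88.5 with RPKM. With the longest transcript as the length, *Nfe2l2* to *Keap1* was 1.35, *Bach1* to *Nfe2l2* 0.0818, *Slc7a11* to *Slc3a2* 0.0152 and *Hmox1* to *Hmox2* 1.03. Without length, *Nfe2l2* to *Keap1* turned to 0.923 and *Hmox1* to *Hmox2*, a ratio added after the data were seen, to 0.932, while *Gclc* to *Gclm* was 2.07, *Bach1* to *Nfe2l2* 0.194 and *Slc7a11* to *Slc3a2* 0.0498. These changes follow from the lengths alone, as the reads are the same. Of the 45 pairs of members, 43 differed beyond counting error with merged exons, 42 with the longest transcript and 45 without length, and without length 11 pairs turned direction.

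Counting genes listed at 0 lowered the median CPM of glutathione synthesis and turnover from 36.5 to 10.00, of glutathione S-transferases from 6.10 to 0.382 and of the quinone, aldehyde and xenobiotic targets from 6.67 to 2.96. Requiring at least 10 reads raised that of NADPH supply from 78.0 to 112.8. With RPKM in place of reads, the median percentile went from 84.4 to 79.4 for regulators of NRF2, from 75.9 to 69.1 for glutathione synthesis and turnover, from 49.6 to 56.4 for glutathione S-transferases, from 90.2 to 88.0 for the thioredoxin system, from 85.0 to 86.8 for NADPH supply, from 86.3 to 90.3 for heme and iron handling, and from 50.6 to 46.0 for the quinone, aldehyde and xenobiotic targets. Members with the motif in a promoter window fell from 5 to 1 with the longer motif.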
